A study of Homo sapiens with 36 samples.

Results

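The genes described are the 10 that carry arginine into the cell, make it, break it down and turn its product ornithine into polyamines: ASS1, ASL, ARG2, OAT, SLC7A1, ODC1, AMD1, SRM, SMS and SAT1. They were taken by symbol and matched to Ensembl gene IDs through GENCODE, which gave all 10 among the 58302 gene IDs counted. The members were chosen by the measured counts of ASS1 in MINO, with GS716054 against DMSO at 72 h, together with the genes of its pathway, so the values of ASS1 in that comparison are a description here, with no test. The study is an RNA-seq experiment on 3 lines of mantle cell lymphoma, a B-cell neoplasm: JEKO, MINO and UPN-1. Each line received DMSO as vehicle or the inhibitor GS716054 and was collected at 24 or 72 h after treatment. GS716054 acts on lysine demethylase 5 (KDM5), a family of enzymes that remove methyl groups from histones. This makes 12 groups of 3 libraries that the labels number as biological replicates. All groups grew in RPMI-1640 medium with serum and added L-glutamine, the labels name no engineered genotype, and the dose of GS716054 was not given in the sources used here. Each line is 1 established culture, so results hold for these cultures.

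Arginine synthesis ends with a pair of urea cycle enzymes. Argininosuccinate synthase (ASS1) joins citrulline to aspartate, and argininosuccinate lyase (ASL) splits the product into arginine and fumarate. Many tumours, some lymphomas among them, express little ASS1 and then depend on arginine that the transporter SLC7A1 brings in from outside. Mitochondrial arginase (ARG2) cuts arginine to ornithine and urea, ornithine aminotransferase (OAT) links ornithine to proline and glutamate, and ornithine decarboxylase (ODC1) turns ornithine into putrescine. AMD1 supplies the decarboxylated S-adenosylmethionine from which spermidine synthase (SRM) and spermine synthase (SMS) build the longer polyamines, and SAT1 acetylates polyamines for export or breakdown. Polyamines are needed by growing cells, and ODC1 is a well-known target of the transcription factor MYC.

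The start regions of ASS1, ODC1, SRM and SLC7A1 are shown first, with 1 kind of recognition letters marked in each stretch. ASS1 (ENSG00000130707) lies on chromosome 9 at 130444961 to 130501274 on the plus strand of GRCh38, and RefSeq gives a further start at 130444707. The 250 bases before that upstream start, chr9:130444457-130444706, hold 2 GC boxes, the letters GGGCGG known as a site of SP1, both read on the opposite strand as CCGCCC (in capitals). The window before the start at 130444961 holds 1 E-box, the letters CACGTG known as a site of MYC and its partners, shown in capitals within chr9:130444878-130444907. ODC1 (ENSG00000115758, chromosome 2, 10439968 to 10448327, minus strand) has an E-box 29 bases before a RefSeq start at 10448012, which lies inside the gene. It is shown within chr2:10448024-10448053 on the minus strand. The 250 bases before the ODC1 start at 10448327 hold no E-box. SRM (ENSG00000116649, chromosome 1, 11054584 to 11060020, minus strand) has an E-box 199 bases before its start, in capitals within chr1:11060021-11060268 on the minus strand. The windows of 250 bases with these E-boxes also hold GC boxes, 2 for ASS1, 4 for ODC1 and 6 for SRM, which are not marked. SLC7A1 (ENSG00000139514, chromosome 13, 29509414 to 29595688, minus strand) has no E-box in the 250 bases before its start, chr13:29595689-29595938 on the minus strand, and 6 GC boxes, in capitals on either strand, of which some overlap. All sequences are RefSeq, GRCh38.p14, written 5′ to 3′ along the gene's strand.
ASS1 upstream start: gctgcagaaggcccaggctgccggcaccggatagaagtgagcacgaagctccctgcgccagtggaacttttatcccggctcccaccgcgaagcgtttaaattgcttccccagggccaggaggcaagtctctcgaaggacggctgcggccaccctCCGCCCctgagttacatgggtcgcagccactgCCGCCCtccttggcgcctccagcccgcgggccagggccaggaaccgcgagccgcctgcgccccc
ASS1 E-box: gcgcgtccccgcCACGTGtccccggtcacc
ODC1 E-box: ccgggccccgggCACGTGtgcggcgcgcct
SRM: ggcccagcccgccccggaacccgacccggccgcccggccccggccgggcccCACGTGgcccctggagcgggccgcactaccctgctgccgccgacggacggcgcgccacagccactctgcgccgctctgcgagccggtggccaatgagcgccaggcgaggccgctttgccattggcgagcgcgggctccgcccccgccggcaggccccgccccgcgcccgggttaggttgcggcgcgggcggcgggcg
SLC7A1: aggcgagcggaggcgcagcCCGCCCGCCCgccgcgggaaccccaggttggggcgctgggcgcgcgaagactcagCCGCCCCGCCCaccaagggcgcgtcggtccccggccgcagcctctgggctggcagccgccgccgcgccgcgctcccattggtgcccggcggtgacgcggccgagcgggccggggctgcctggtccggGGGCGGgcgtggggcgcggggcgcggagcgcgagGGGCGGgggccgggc

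All 10 members had a RefSeq window of 250 bases before a start, searched on both strands for 4 sets of letters. Members are counted by gene, over 2 windows for ASS1 and ODC1 and 3 for AMD1, while the shares are of single windows. CACGTG was found in 1 window each of ASS1, ODC1 and SRM, and it stands in 6.34% of all 35116 windows. GGGCGG was found for every member except SAT1 and stands in 42.64% of windows. TGACGTCA, the cyclic AMP response element, was found for ARG2 only, in 2 copies, against 1.65% of windows. TGATGNAA, the element of C/EBP and ATF proteins such as ATF4, was found for none of the members and stands in 3.14% of windows.

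The libraries held 8784815 to 14970876 reads in genes, with a median of 11926903, and 3 reads corresponded to 0.196 to 0.353 CPM, the read count scaled to a common library size. Replicates of a group correlated at 0.9666 to 0.9953 on the log2 CPM scale, and no pair agreed within sampling noise. Every marker on a list of 8 for B cells and mantle cell lymphoma had reads in at least 1 library of each line. Their summed level was 2690 to 8290 CPM, with CCND1 highest at means of 2040, 2180 and 2100 CPM in JEKO, MINO and UPN-1. The sums were at most 9.11 CPM for T-cell, 8.57 CPM for myeloid, 28.5 CPM for stromal (mostly PECAM1) and 16 CPM for epithelial markers. In MINO at 72 h the libraries numbered 2 stood apart in both groups. BHLHE40, a repressor induced by stress and low oxygen, was at 656.8 CPM in that DMSO library against 54.98 and 60.38 CPM in the others, and at 135.5 CPM against 34.98 and 33.16 CPM with GS716054. Results of MINO at 72 h are therefore also given without both libraries.

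All 10 genes were expressed in every library. In DMSO at 24 h, levels per kilobase of exon put ODC1 and SRM at the top in every line and ASL at the bottom. ODC1 was highest with JEKO at 286.0 ± 30.0 CPM per kilobase (SD, n = 3), MINO at 246.0 ± 18.2 and UPN-1 at 632.0 ± 51.6. SRM came next, at 156.0 ± 40.6, 131.0 ± 22.0 and 131.0 ± 5.7 CPM per kilobase. ASL was lowest at 2.11 ± 0.204, 2.97 ± 0.143 and 2.0 ± 0.422 CPM per kilobase, and ASS1 stood just above it in JEKO and MINO, at 4.83 ± 0.893 and 5.35 ± 1.3. The replicate ranges of neighbours in this order did not overlap, except those of SLC7A1, ARG2 and OAT in JEKO.

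The lines differed at this starting point, without GS716054. Between MINO and JEKO in DMSO at 24 h, 4 of 10 members passed the test (quasi-likelihood test of edgeR, p adjusted over all genes by Benjamini-Hochberg and under 0.05), against 48% of all genes. Between UPN-1 and JEKO 5 of 10 passed, against 44.9% of all genes, and between MINO and UPN-1 6 of 10, against 44.4%. These shares are near those of all genes. SAT1, the acetylating enzyme, lay at 87.54, 98.24 and 83.13 CPM in JEKO, 17.54, 20.29 and 19.29 CPM in MINO and 20.37, 21.31 and 16.49 CPM in UPN-1. It was 4.7-fold lower in MINO than in JEKO (log2 fold change -2.23, SE 0.35, adjusted p = 3.01e-06 in edgeR), with no overlap, as for 62.4% of all genes. UPN-1 stood above JEKO in ODC1 (2.21-fold, adjusted p = 5.6e-05 in edgeR), AMD1 (2.01-fold, adjusted p = 0.000174 in edgeR) and SLC7A1 (2.55-fold, adjusted p = 4.35e-06 in edgeR). ASS1 was 2.62-fold higher in UPN-1 than in JEKO (adjusted p = 0.0489 in edgeR), a call kept under only 1 of 10 alternatives (adjusted p of 4.02e-12 to 0.14 over all of them). It was lost when any 1 of the 6 libraries was left out (adjusted p of at least 0.0765 there in edgeR) and under other alternatives with all libraries.

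ASS1 had the widest range of the members. It ran from 8.208 to 576.1 CPM over the 36 libraries, a 70.2-fold span, where the others spanned 2.32-fold (ARG2) to 10.9-fold (ODC1). The highest groups had received DMSO: JEKO in DMSO at 72 h with a mean of 355.8 ± 260 CPM (SD, n = 3) and MINO in DMSO at 72 h with 194 ± 18.1 CPM. JEKO with GS716054 at 72 h followed at 189.1 ± 211 CPM, and the 4 UPN-1 groups came next at 29.94 to 43.39 CPM. Below them stood MINO in DMSO at 24 h, JEKO in DMSO at 24 h, MINO with GS716054 at 72 h and JEKO with GS716054 at 24 h, at 13.26 to 16.15 CPM. MINO with GS716054 at 24 h was lowest at 9.026 ± 1.15 CPM. Only 2 neighbouring pairs in this order had ranges that did not overlap: the lowest UPN-1 group against MINO in DMSO at 24 h, and the 2 lowest groups against each other.

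In DMSO, ASS1 rose with time in JEKO and stood higher at 72 h in MINO. In JEKO it lay at 16.27, 15.96 and 11.46 CPM at 24 h and at 576.1, 69.07 and 422.3 CPM at 72 h, with no overlap (as for 50.1% of all genes) but a wide spread at 72 h, where replicate 2 was the low library. This was a 24.5-fold rise (log2 fold change 4.61, SE 0.86, adjusted p = 0.00231 in edgeR), and it passed under all 13 alternatives, with log2 fold changes of 4.09 to 5.12 in those fitted by edgeR. In MINO it lay at 15.66, 20.29 and 12.51 CPM at 24 h and at 173.6, 208 and 200.5 CPM at 72 h, 12-fold apart. These are bulk libraries, in which more cells with ASS1 and more RNA per cell cannot be told apart. The DMSO 72 h libraries of MINO are also those of the comparison on which the list was chosen, so no test is given there. In UPN-1 the levels were 40.06, 38.23 and 36.42 CPM at 24 h and 65.76, 38.9 and 25.51 CPM at 72 h, and the 2 groups overlapped (log2 fold change 0.19, SE 0.26, adjusted p = 0.669 in edgeR).

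**Figure D1:**
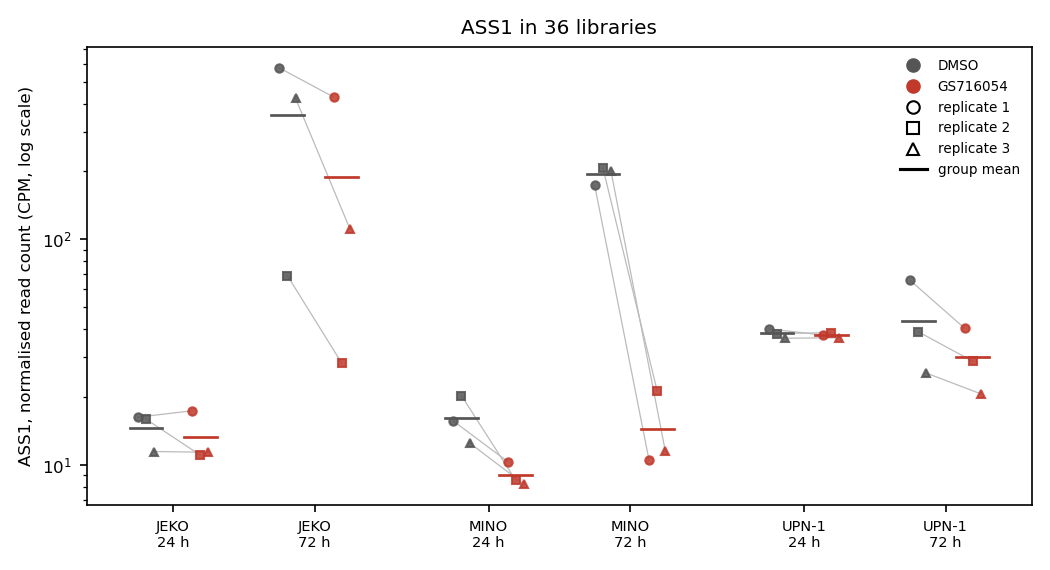
ASS1 in each of the 36 libraries, in CPM on a log axis, by line, time and treatment. Symbols give the replicate number, bars the group mean, and grey lines join same-numbered libraries. DMSO libraries at 72 h reach 576.1 CPM in JEKO and 208 CPM in MINO, while MINO libraries with GS716054 at 72 h lie between 10.48 and 21.24 CPM.

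With GS716054 at 72 h, ASS1 in MINO lay at 10.48, 21.24 and 11.47 CPM, near its level at 24 h in DMSO and far below DMSO at 72 h. The log2 fold change against DMSO was -3.76 (SE 0.26), 13.6-fold lower, and -4.12 without the libraries numbered 2. Treated libraries held 0.0604, 0.102 and 0.0572 of the level of their same-numbered DMSO library. At 24 h, where DMSO was still low, MINO lay at 10.34, 8.531 and 8.208 CPM with GS716054, below all 3 DMSO libraries (no overlap, as for 35% of all genes). This difference did not pass (log2 fold change -0.87, SE 0.25, adjusted p = 0.0896 in edgeR). It passed in a fit with the replicate number within each time as a block, which compares same-numbered libraries (log2 fold change -0.86, adjusted p = 0.00792 in edgeR, with 0.00157 to 0.513 over all alternatives). That block was added after the libraries had been examined. The planned block, 1 term per replicate number across both times, also called ASS1 here.

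In JEKO at 72 h, ASS1 with GS716054 lay at 427.6, 28.26 and 111.3 CPM. Replicate 2 was again the low library, and the groups overlapped. Each treated library was below its same-numbered DMSO library, at 0.742, 0.409 and 0.264 of its level. Without the block the difference did not pass (log2 fold change -0.91, SE 0.74, adjusted p = 0.851 in edgeR). Over the alternatives fitted by edgeR the log2 fold change ran from -2.35, without the treated replicate 1, to -0.38, without the DMSO replicate 1. With the block within each time it passed (log2 fold change -1.21, SE 0.22, adjusted p = 0.0141 in edgeR, with 0.000189 to 0.999 over all alternatives). It did not pass with the planned block. In UPN-1 at 72 h the levels were 40.37, 28.81 and 20.65 CPM, at 0.614, 0.741 and 0.809 of the same-numbered DMSO libraries. The log2 fold change was -0.52 (SE 0.27, adjusted p = 0.746 in edgeR) without the block and -0.48 (SE 0.09, adjusted p = 0.00176 in edgeR, with 0.00176 to 1 over all alternatives) with the block within each time. With the planned block this difference did not pass. At 24 h JEKO (17.37, 11.04 and 11.37 CPM) and UPN-1 (37.64, 38.55 and 36.63 CPM) overlapped with DMSO, and the log2 fold changes of -0.15 (SE 0.80) and -0.03 (SE 0.27) did not pass.

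The counts of members that passed in each comparison of GS716054 with DMSO were low. At 24 h none of 10 passed in JEKO, against 0.018% of all genes, and none in UPN-1, against 0.0262%. Without adjustment 1 and 0 members had p under 0.05 there, and DESeq2 called 0 in both. In MINO at 24 h 1 of 10 passed, SLC7A1, against 2.39% of all genes, and the members' median log2 fold change was -0.37, against 0.0051 over all genes. At 72 h none of 10 passed in JEKO, against 0.3% of all genes, or in UPN-1, against 0.334%. No member there had an unadjusted p under 0.05, and DESeq2 called 0. In MINO at 72 h 1 of the 9 members other than ASS1 passed, again SLC7A1, against 5.56% of all genes, with a median of -0.34 against -0.027 over all genes. With the block within each time, MINO at 24 h gave 5 of 10 members against 15.8% of all genes, and MINO at 72 h gave 2 of 9 against 20.2%. UPN-1 at 72 h then gave 2 of 10 against 7.47% and JEKO at 72 h 1 of 10 against 3.34%. At 24 h the block gave none in UPN-1, against 1.5% of all genes. The planned block gave 3 of 10 members in MINO at 24 h, against 6.61% of all genes, and 2 of 9 at 72 h, against 10.2%. It gave none in JEKO (0.0479% and 0.677% of all genes at 24 and 72 h) or UPN-1 (0.0787% and 1.46%).

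SLC7A1, the main importer of arginine, fell in MINO at both times. In DMSO it lay at 240, 207 and 268.2 CPM at 24 h and with GS716054 at 145.8, 84.29 and 138.3 CPM, with no overlap, as for 35% of all genes. The log2 fold change was -0.98 (SE 0.21, adjusted p = 0.0309 in edgeR), but the call was lost when any 1 of the 6 libraries was left out (adjusted p of 0.0625 to 0.135 in edgeR). At 72 h the levels were 283.1, 239.7 and 311.2 CPM in DMSO and 158.8, 115.7 and 135.2 CPM with GS716054, again apart, as for 22.4% of all genes. This was a 2.05-fold fall (log2 fold change -1.04, SE 0.21, adjusted p = 0.0127 in edgeR), and it stood at -1.05 without the libraries numbered 2 (adjusted p = 0.00453 in edgeR). It was lost without replicate 3 of the DMSO group (adjusted p = 0.0553 in edgeR) and when only the 6 libraries of the comparison were fitted (0.0659), within 4.07e-06 to 0.0659 over all alternatives.

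In JEKO and UPN-1 the log2 fold change of SLC7A1 at 24 h was 0.03 in each (SE 0.22 and 0.16), and neither passed. At 72 h JEKO lay at 168.6, 172 and 282.6 CPM in DMSO and 215.9, 131 and 194.7 CPM with GS716054, which overlapped (log2 fold change -0.20, SE 0.22, adjusted p = 0.923 in edgeR). UPN-1 lay at 380, 264.6 and 344.5 CPM in DMSO and 261.4, 227.9 and 335.6 CPM with GS716054. Each treated UPN-1 library was below its same-numbered DMSO library. The log2 fold change of -0.25 (SE 0.16) did not pass without the block (adjusted p = 0.873 in edgeR). It passed with the block within each time (0.0397, with 0.0397 to 1 over all alternatives) but not with the planned block. Whether the response of SLC7A1 differed among the 3 lines depended on the same choice: edgeR gave adjusted p = 0.201 at 24 h and 0.284 at 72 h without the block, and 0.0011 and 0.00634 with it (0.0011 to 0.796 and 0.00634 to 0.536 over all alternatives). Of the 10 members at 24 h, none passed this test of the difference among lines without the block, against 0.106% of all genes, with 1 at an unadjusted p under 0.05. At 72 h none of 9 passed, against 1.01%, with 2 at an unadjusted p under 0.05, and DESeq2 called 0 at either time. With the block within each time ODC1, SRM and SLC7A1 passed at 24 h, against 5.74% of all genes, and ODC1 and SLC7A1 at 72 h, against 9.78%. With the planned block SLC7A1 alone passed at each time, against 1.37% and 2.94% of all genes.

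**Figure D2:**
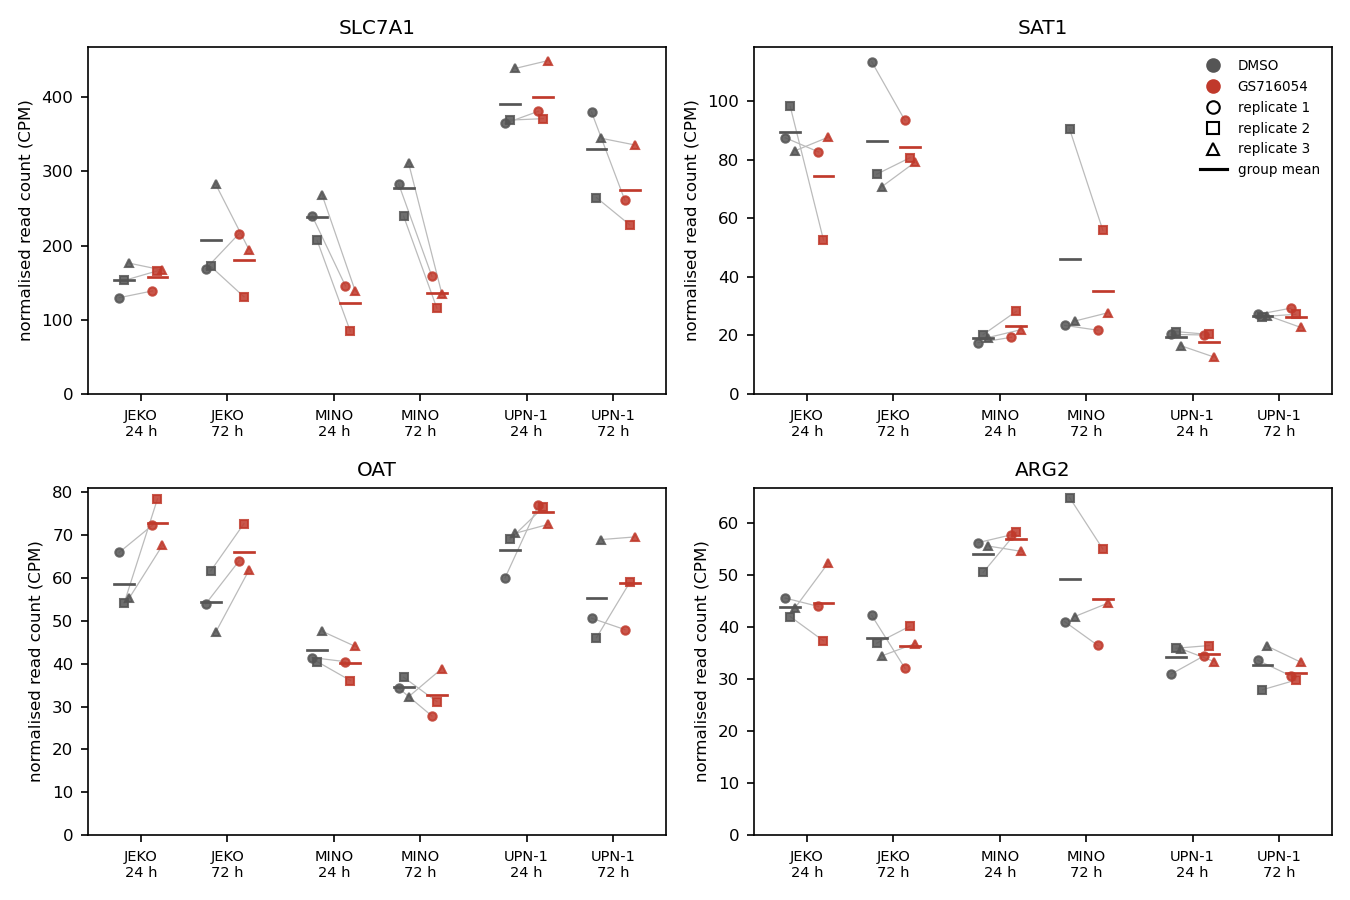
SLC7A1, SAT1, OAT and ARG2 in the 36 libraries, in CPM on linear axes, 1 panel per gene, with replicate symbols, group means as bars and grey lines between same-numbered libraries. SLC7A1 in MINO lies at 84.29 to 158.8 CPM with GS716054 and at 207 to 311.2 CPM in DMSO, and SAT1 in MINO at 72 h shows the libraries numbered 2 at 90.5 and 55.92 CPM, above the others.

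The remaining genes of arginine metabolism, ASL, ARG2 and OAT, did not pass a test of treatment or time over the 12 libraries of a line. With a library or the MINO pair numbered 2 left out, ARG2 passed once with time in MINO in DMSO (-0.36, adjusted p = 0.0384 in edgeR) and OAT once in UPN-1 (-0.46, adjusted p = 0.0392). ASL (ENSG00000126522, chromosome 7, 66075800 to 66094697, plus strand) stayed between 6.793 and 21.38 CPM in all libraries. In MINO at 72 h it lay at 16.99, 8.89 and 15.09 CPM in DMSO and 12.37, 8.625 and 10.23 CPM with GS716054, which overlapped (log2 fold change -0.42, SE 0.24, adjusted p = 0.33 in edgeR). ARG2 (ENSG00000081181, chromosome 14, 67619920 to 67651708, plus strand) stayed between 27.9 and 64.8 CPM. Its count is uncertain, because 39.58% of its exon length overlaps exons of VTI1B on the other strand and the strand setting of the counting was not given. OAT (ENSG00000065154, chromosome 10, 124397303 to 124418976, minus strand) stood higher with GS716054 in each JEKO library than in its same-numbered DMSO library. At 24 h it lay at 65.99, 54.21 and 55.31 CPM in DMSO and 72.34, 78.48 and 67.64 CPM with GS716054. The groups did not overlap at 24 or 72 h, as was so for 12.5% and 11.3% of all genes, and the log2 fold changes of 0.30 (SE 0.14) and 0.29 (SE 0.14) did not pass (adjusted p = 1 and 0.609 in edgeR).

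SAT1 (ENSG00000130066, chromosome X, 23783173 to 23786210, plus strand) did not pass with GS716054 in any line or time, nor with time in DMSO as tested over the 12 libraries of a line. In MINO in DMSO it lay at 17.54, 20.29 and 19.29 CPM at 24 h and 23.45, 90.5 and 24.9 CPM at 72 h. The high value was that of the library numbered 2, and the log2 difference of 1.26 (SE 0.46, adjusted p = 0.144 in edgeR) became 0.36 (0.139) without the libraries so numbered. It passed under 3 of 14 alternatives (adjusted p of 2.75e-06 to 0.533 over all of them), of which 1 was the planned block of 1 term per replicate number (1.03, adjusted p = 0.0389 in edgeR). In UPN-1 in DMSO it lay at 20.37, 21.31 and 16.49 CPM at 24 h and at 27.17, 26.45 and 26.82 CPM at 72 h, which did not overlap, as for 27.8% of all genes. The difference did not pass (0.48, SE 0.18, adjusted p = 0.119 in edgeR) except with that planned block (0.49, adjusted p = 0.0224, with 0.0224 to 0.459 over all alternatives). In MINO with GS716054 at 72 h it lay at 21.79, 55.92 and 27.76 CPM, with a log2 fold change of -0.39 (SE 0.45, adjusted p = 0.657 in edgeR) that became 0.01 (0.986) without the libraries numbered 2. The same libraries were those with high BHLHE40, and the part of whatever set them apart was not tested.

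Among the enzymes of polyamine synthesis, the clearest change was a fall with time in JEKO cells in DMSO. In JEKO in DMSO 5 of 10 members passed between 24 and 72 h, against 31.7% of all genes. ASS1 was the 1 member that was higher, against 17.1% of all genes, and ODC1, AMD1, SRM and SMS were the 4 that were lower, against 14.6%. The members' median log2 fold change was -0.17, against 0.047 over all genes. ODC1 lay at 846.8, 941.7 and 1045 CPM at 24 h and at 553.8, 525.6 and 509 CPM at 72 h, a log2 fold change of -0.83 (SE 0.16, adjusted p = 0.00265 in edgeR). AMD1 (ENSG00000123505, chromosome 6, 110874770 to 110898879, plus strand) lay at 134, 134.7 and 134.9 CPM and then at 55.4, 72.63 and 73.3 CPM, 2-fold lower (SE 0.14 on the log2 scale, adjusted p = 0.000692 in edgeR). In both genes all libraries at 72 h were below all at 24 h. In this comparison 50.1% of all genes had groups that did not overlap. SMS (ENSG00000102172, chromosome X, 21940709 to 21994837, plus strand) fell from 89.24, 92.84 and 101.5 CPM to 60.54, 63.3 and 60.21 CPM (log2 fold change -0.62, SE 0.14, adjusted p = 0.00487 in edgeR). SRM fell from 237, 269 and 383.3 CPM to 206.9, 139.3 and 152.8 CPM (-0.83, SE 0.23, adjusted p = 0.015 in edgeR). The groups were apart in these genes too, but the call for SRM was lost without DMSO 24 h replicate 3 (adjusted p = 0.0936 in edgeR) or DMSO 72 h replicate 2 (0.0545), within 0.000195 to 0.0936 over all alternatives.

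In MINO in DMSO 0 of the 9 members other than ASS1 passed between 24 and 72 h, against 0.0932% of all genes. Of these 9, 4 had an unadjusted p under 0.05 in edgeR, and DESeq2 called 0. ODC1 lay at 823, 747 and 866.2 CPM at 24 h and 536.6, 470.3 and 585.8 CPM at 72 h, which did not overlap, as for 32.4% of all genes (log2 fold change -0.61, SE 0.22, adjusted p = 0.139 in edgeR). Without the libraries numbered 2 at 72 h, ODC1 (-0.51, adjusted p = 0.0185 in edgeR), SRM (-0.69, 0.0163), AMD1 (-0.36, 0.0318) and ARG2 (-0.36, 0.0384) passed as lower. The number of all genes that passed also rose there, from 14 to 2028. Over all alternatives the adjusted p ran from 0.0185 to 0.374 for ODC1 and from 0.000558 to 0.382 for SRM. In UPN-1 in DMSO none of 10 passed, against 1.47% of all genes, with 3 at an unadjusted p under 0.05 and 1, ODC1, called by DESeq2. ODC1 there lay at 1991, 1990 and 2287 CPM at 24 h and 1117, 836.4 and 1733 CPM at 72 h (-0.76, SE 0.23, adjusted p = 0.0826 in edgeR). The groups were apart, as for 27.8% of all genes, and replicate 3 was the high library at 72 h. Without it ODC1 (-1.09, adjusted p = 0.00472 in edgeR), SRM (-0.98, 0.0135), AMD1 (-0.49, 0.0237) and OAT (-0.46, 0.0392) passed as lower. The number of all genes that passed in this comparison moved as well, from 224 to between 1 and 3084 with 1 library left out.

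**Figure D3:**
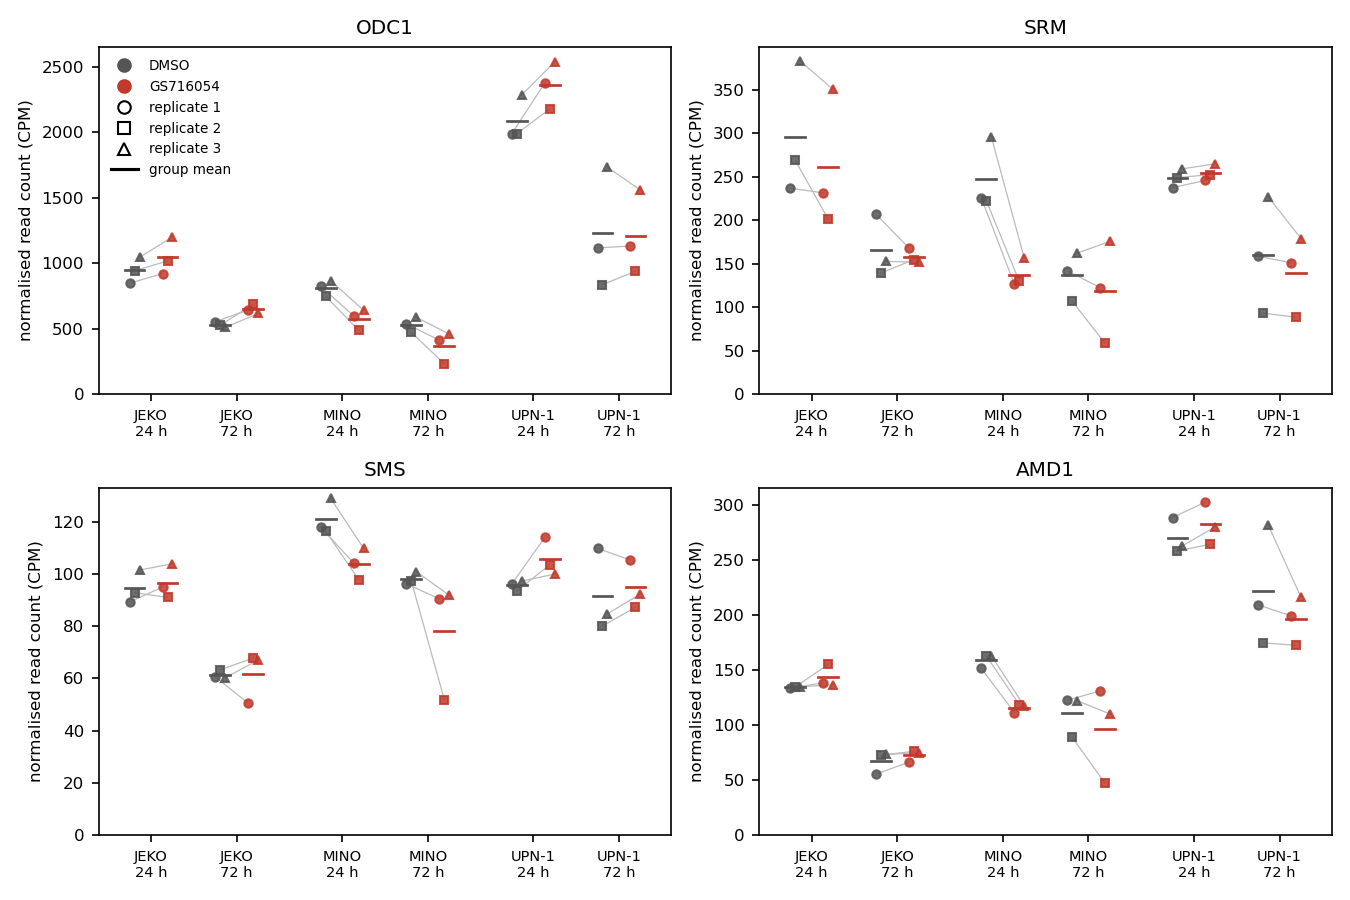
ODC1, SRM, SMS and AMD1 in the 36 libraries, in CPM on linear axes, 1 panel per gene, with replicate symbols, group means as bars and grey lines between same-numbered libraries. In JEKO in DMSO all 4 genes lie lower at 72 h than at 24 h, ODC1 from 846.8 to 1045 CPM down to 509 to 553.8 CPM.

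With GS716054 the polyamine enzymes lay below DMSO in MINO at 24 h, without passing the test. ODC1 was at 596.9, 487.5 and 640.1 CPM, below every DMSO library (log2 fold change -0.53, SE 0.22, adjusted p = 0.229 in edgeR). SRM lay at 225.5, 222.5 and 296.2 CPM in DMSO and 126.4, 129.6 and 156.6 CPM with GS716054 (-0.88, SE 0.30, adjusted p = 0.151 in edgeR). AMD1 lay at 151.5, 163 and 163.2 CPM and 111.4, 118.5 and 117.4 CPM (-0.49, SE 0.28, adjusted p = 0.387 in edgeR). All 3 genes had groups that were apart, as 35% of all genes did in this comparison. With the block within each time all 3 passed: ODC1 with an adjusted p in edgeR of 0.0207 (0.00787 to 0.582 over all alternatives), SRM with 0.00164 (0.000581 to 0.425) and AMD1 with 0.0404 (0.00315 to 0.627). With the planned block only SRM of these passed. SMS lay at 117.9, 116.4 and 129 CPM in DMSO and 104.2, 97.82 and 109.8 CPM with GS716054 (-0.25, SE 0.18, adjusted p = 0.511 in edgeR).

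At 72 h ODC1 in MINO with GS716054 lay at 411.4, 232.3 and 458.3 CPM, below all DMSO libraries (no overlap, as for 22.4% of all genes), with the library numbered 2 lowest. The log2 fold change of -0.54 (SE 0.22, adjusted p = 0.164 in edgeR) passed with the block within each time (-0.60, adjusted p = 0.0102 in edgeR, with 0.0102 to 0.398 over all alternatives). Without the libraries numbered 2 it was -0.40 (adjusted p = 0.0568 in edgeR). SRM (-0.22, SE 0.30), SMS (-0.34, SE 0.18) and AMD1 (-0.22, SE 0.28) did not pass at 72 h. In these genes too the treated library numbered 2 was lowest, at 58.56, 51.84 and 47.21 CPM, and without both libraries so numbered the log2 fold changes were -0.06, -0.14 and -0.05. In JEKO ODC1 lay higher with GS716054 than in the same-numbered DMSO library in all 3 pairs at each time (log2 fold changes 0.14 and 0.29, SE 0.16 each), and neither difference passed. UPN-1 gave 0.17 and -0.01 (SE 0.23 each). The difference of the ODC1 response among lines had an adjusted p in edgeR of 0.7 at 24 h and 0.381 at 72 h without the block. With the block within each time it had 0.0124 and 0.00252 (0.0124 to 1 and 0.00252 to 0.647 over all alternatives). It did not pass at either time with the planned block.

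**Figure D4:**
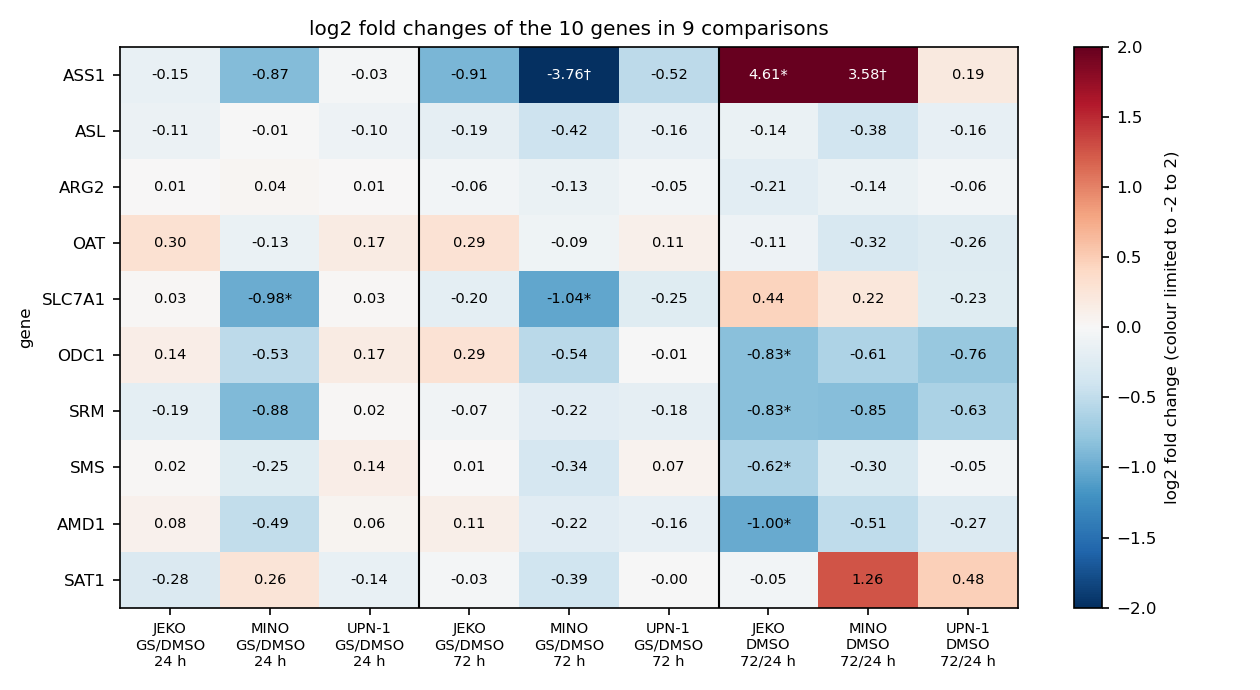
Log2 fold changes of the 10 members, colour and printed value, for GS716054 against DMSO in each line and time and for DMSO at 72 h against 24 h. Asterisks mark adjusted p in edgeR under 0.05, and daggers the values of ASS1 that are a description only. ASS1 stands at -3.76 with GS716054 in MINO at 72 h and at 4.61 with time in JEKO, and SLC7A1 at -0.98 and -1.04 in MINO.

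How the response changed between the times was tested for each line. In JEKO 0 of 10 members passed, against 0% of all genes, in UPN-1 0 of 10 against 0%, and in MINO 0 of the 9 other members against 0.0133%. No member had an unadjusted p under 0.05 in these tests, and DESeq2 called 0 in each line. ASS1 in MINO went from -0.87 at 24 h to -3.76 at 72 h on the log2 scale, a change of -2.89 (SE 0.35) that is given as a description.

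A list of 51 other genes of arginine, proline and polyamine metabolism was examined, of which 39 to 42 were tested in each line. With GS716054 none passed in JEKO or UPN-1 at either time, with 1 and 3 genes at an unadjusted p under 0.05 in JEKO at 24 and 72 h and 3 and 2 in UPN-1. In MINO 3 of 39 passed at 24 h, against 2.39% of all genes, and 4 of 39 at 72 h, against 5.56%. PYCR1, a mitochondrial enzyme of the last step of proline synthesis, was lower at both times. It lay at 87.93, 95.78 and 93.99 CPM in DMSO and 43.85, 33.75 and 40.5 CPM with GS716054 at 24 h, and at 107, 109.1 and 128.1 CPM and 49.35, 38.13 and 57.42 CPM at 72 h. It was 2.4-fold lower at each time (log2 fold change -1.26, SE 0.16, adjusted p = 0.00414 and 0.00127 in edgeR), with no overlap, as for 35% and 22.4% of all genes. MTAP, which salvages the methylthioadenosine left over by spermidine and spermine synthesis, was lower at both times (-0.64, adjusted p = 0.0222 in edgeR, and -0.47, 0.0422). PAOX, which oxidises acetylated polyamines, was higher at 24 h (0.88, adjusted p = 0.0385 in edgeR). At 72 h AHCY, which clears S-adenosylhomocysteine, was lower (-0.85, adjusted p = 0.0101 in edgeR), as was SLC3A2, the heavy chain shared by several amino acid transporters (-0.44, 0.0382). Without the libraries numbered 2 at 72 h these genes passed again (PYCR1 at -1.17, adjusted p = 0.000108 in edgeR) among 11 of the list, 4 higher and 7 lower, while 2192 of all genes passed there. DDAH2, which breaks down an inhibitor of nitric oxide synthase, was then the most raised (2.46-fold), and GATM, which moves a group from arginine onto glycine on the way to creatine, the most lowered (2.3-fold), and both were named after their values were seen. With the block within each time the counts were 5 higher and 9 lower at 24 h, against 15.8% of all genes, and 7 and 7 at 72 h, against 20.2%. In UPN-1 at 72 h 3 were then higher and 2 lower, against 7.47%.

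In JEKO in DMSO 22 of 42 genes of this list passed between 24 and 72 h, against 31.7% of all genes, with 9 higher against 17.1% and 13 lower against 14.6%. Among the lower ones were EIF5A, the translation factor that carries a modification made from spermidine (-1.19, SE 0.23, adjusted p = 0.00265 in edgeR), and AZIN1, which protects ODC1 from antizyme (-0.63, adjusted p = 0.0136 in edgeR). The proline enzymes ALDH18A1 (-0.81) and PYCR3 (2-fold) were also lower, while PYCR1 was higher (0.62, adjusted p = 0.0124 in edgeR). SLC25A29, a mitochondrial carrier of basic amino acids, was 4.68-fold higher (2.23, SE 0.28, adjusted p = 0.000571 in edgeR). The polyamine oxidases SMOX (1.66, adjusted p = 0.0113 in edgeR) and PAOX (1.06, 0.00651) were higher. In MINO in DMSO none of 39 passed, against 0.0932% of all genes, with 13 at an unadjusted p under 0.05, and 6 passed without the libraries numbered 2, where 2028 of all genes did. In UPN-1 2 of 41 passed, against 1.47%: SLC7A3, a further importer of basic amino acids (1.26, adjusted p = 0.0361 in edgeR), and SLC25A29 (0.95, 0.0421).

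Levels of ASS1 were set beside those of ATF4, a factor of the amino acid stress response known to act on many amino acid genes. In MINO ATF4 lay at 238.5, 268.9 and 251.6 CPM in DMSO and 154.6, 138.7 and 170.4 CPM with GS716054 at 24 h, and at 382.3, 561.8 and 436.4 CPM and 228.4, 245.8 and 176 CPM at 72 h. It was lower with GS716054 at both times, with no overlap, as for 35% and 22.4% of all genes (log2 fold changes -0.74 and -1.10, adjusted p = 0.0383 and 0.00327 in edgeR), and at 72 h also without the libraries numbered 2 (-1.05, adjusted p = 0.000366). In JEKO in DMSO it went from 185.5, 198.2 and 155.3 CPM at 24 h to 604.3, 272.7 and 491.7 CPM at 72 h (1.35, adjusted p = 0.00461 in edgeR), and replicate 2 was the low library at 72 h, as for ASS1. In UPN-1 it went from 388.1, 396 and 342.7 CPM to 545.5, 337.7 and 403.4 CPM, which overlapped (0.20, adjusted p = 0.434 in edgeR). With GS716054 at 72 h, ATF4 in JEKO lay at 0.74, 0.779 and 0.809 of the same-numbered DMSO libraries. In UPN-1 it lay at 0.674, 0.922 and 0.915 of them, and in both lines the groups overlapped. Over the 3 lines, treated libraries had less ATF4 in 7 of 9 such pairs at 24 h and in 9 of 9 at 72 h. Over the means of the 12 groups, log2(CPM + 1) of ASS1 correlated at r = 0.824 with ATF4, 0.268 with MYC, 0.265 with BHLHE40 and -0.314 with the factor HIF1A. That of SLC7A1 and ATF4 correlated at 0.781. Other members had stronger, inverse values with other factors: SAT1 with HIF1A (-0.954), AMD1 with BHLHE40 (-0.872) and ODC1 with BHLHE40 (-0.853). ODC1 and MYC stood at -0.636. These are descriptions over groups that share lines and culture times. For ASS1 they include the MINO 72 h groups by which it was chosen. ODC1 and AMD1 correlated at 0.892 in the same way. Levels of MYC differed among the lines. In DMSO at 24 h MYC lay at 58.79 to 101.5 CPM in UPN-1, where ODC1 was highest. In JEKO and MINO it lay at 468.3 to 545.9 CPM. In MINO, treated libraries held 0.297 to 0.384 of the MYC and 0.494 to 0.782 of the ODC1 of their same-numbered DMSO library. With time in DMSO in MINO, MYC lay higher at 72 h, at 625.1 to 804.4 CPM, while ODC1 lay lower. The named gene most like ASS1 over the 12 groups, among 13385 genes whose mean log2 CPM reached 1, was GPT2, a mitochondrial alanine aminotransferase (r = 0.959), followed by RBM39 (0.942) and ATXN2L (0.94). The MINO 72 h groups are among the 12 here too, so this is also a description.

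**Figure D5:**
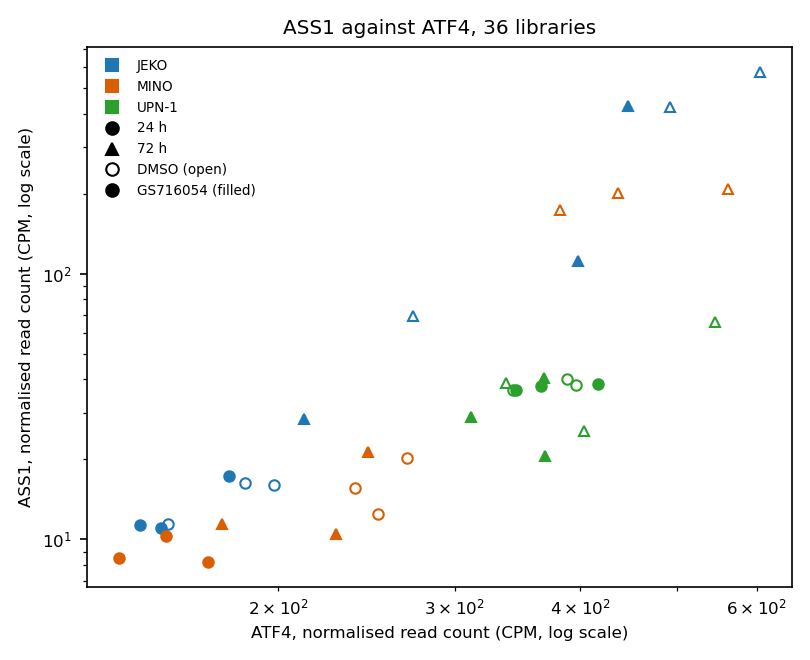
ASS1 against ATF4 in the 36 libraries, in CPM on log axes, by line (colour), time and treatment (symbols as in the key). Libraries of JEKO and MINO in DMSO at 72 h have 69.07 to 576.1 CPM of ASS1 at ATF4 levels of 272.7 to 604.3 CPM, while UPN-1 libraries of like ATF4 have 20.65 to 65.76 CPM.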

How the data were processed

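RNA-seq of 36 libraries was available as tables of whole-number read counts per Ensembl gene ID, which the authors deposited without normalisation. Per the submitters' processing notes, HISAT2 2.2.1, HTSeq 0.13.5 and the build GRCh38 were used; the release of the annotation and the strand setting are not given in the sources used here. The labels name a Qiagen mRNA Prep kit. Lines of reads in no gene (43.25% to 45.93% of reads in no feature, against 40.7% to 44.91% in genes) were left out of library sizes and tests. Symbols and positions come from GENCODE v44, which named 57532 of the 58302 IDs, and sequences from RefSeq (GRCh38.p14).

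Counts were filtered (filterByExpr, minimum count 10, minimum total 15), scaled by TMM and tested with edgeR 4.0.16 in R 4.3.3 by the quasi-likelihood test, with limma 3.58.1. Each line was fitted on its 12 libraries (16690, 15028 and 15248 genes in JEKO, MINO and UPN-1), and differences among lines on all 36 (17980 genes). P-values were adjusted by Benjamini-Hochberg over all genes tested, and "passed" means an adjusted p under 0.05. The standard error (SE) of a log2 fold change was its size over the root of the F statistic. Alternatives were DESeq2 1.42.0, other scalings and filters, all 36 or only 6 libraries, each library left out, and replicate blocks. The labels name biological replicates but not separate cultures, so p-values measure the spread between these libraries. Pseudogene copies of the members held at most 0.776% of a member's counts. Scaling by totals in place of TMM shifted all genes by 0.122 (log2) in JEKO DMSO 72 h against 24 h and by at most 0.089 elsewhere.

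Same-numbered libraries of the 2 treatments deviated together within a time (correlation of deviations 0.35 to 0.629 in JEKO at 72 h, 0.164 to 0.296 and 0.335 to 0.595 in MINO, 0.135 to 0.322 and 0.536 to 0.62 in UPN-1), except in JEKO at 24 h, where 1 of 3 was 0.0448. Deviations in DMSO at 24 and 72 h did not go together (-0.0503 to 0.208). The block within each time was added after seeing this, as was leaving out the MINO 72 h libraries numbered 2. On simulated counts of MINO at 72 h (14770 genes), the test recovered 47 of 98 genes changed 2-fold and 85 of 99 changed 4-fold, with 11 unchanged genes called.

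The members, the gene lists and the tests were chosen with earlier results of these data known. Named genes were all members, genes of the wider list that passed, the factors set beside them and the genes most like ASS1 by correlation over group means. Of the 22 genes of the wider list that passed with time in JEKO in DMSO only some were named. They are not simply those with the largest changes.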

Additional observations from a re-analysis of the deposited data

Results flagged for a closer look

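For a pair of genes beside the members, the effect of GS716054 differed among the 3 lines by the test of that difference (edgeR over all 36 libraries). PYCR1 had an adjusted p of 0.0148 at 24 h and 0.0124 at 72 h, with log2 fold changes of -1.26 and -1.26 in MINO, -0.17 and -0.25 in JEKO and -0.04 and -0.13 in UPN-1. MYC had an adjusted p of 0.000497 at 24 h and 4.91e-06 at 72 h, with log2 fold changes of -1.55 and -1.69 in MINO, 0.02 and 0.14 in JEKO and -0.07 and 0.28 in UPN-1.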

How the results depend on the processing

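Of 2580 values of single genes under an alternative, 2473 kept their side of the threshold, 39 lost the call and 65 gained it. For ASS1 in the MINO comparisons given as a description, staying within the replicate spread counted as kept. There 3 values, without libraries numbered 2 at 72 h, moved beyond that spread. While 0 called values turned, 141 of the 2473 changed sign without passing in either fit. Of 238 group levels, 38 moved by over 1 SD, 30 under totals in place of TMM and 8 under DESeq2 size factors. With no low-count filter 1 member passed for GS716054 in JEKO at 72 h and 3 for MINO at 24 h, while 3 (of 9, without ASS1) and 2 passed with time in DMSO in MINO and UPN-1, 1 in the difference among lines at 24 h and 2 between MINO and JEKO. DESeq2 gave 2 in MINO at 24 h and 1 with time in UPN-1. The planned replicate block, 1 term per number across both times, gave 3 and 2 in MINO at 24 and 72 h, 3 and 3 with time in DMSO in MINO and UPN-1, and 1 in the difference among lines at each time, and it changed no other count of members by over 1.5 times. The block within each time gave 1 and 0 in JEKO at 72 and 24 h, 5 and 2 for MINO at 24 and 72 h, 2 in UPN-1 at 72 h, and 3 and 2 in the difference among lines. Fitting only the 6 libraries compared gave 5 in MINO at 24 h and 0 at 72 h, where SLC7A1 lost its call. All 36 libraries gave 1 with time in MINO in DMSO, SAT1, and leaving out the libraries numbered 2 gave 4. With each library left out in turn, the count was 0 to 0 in MINO at 24 h, 0 to 1 in MINO at 72 h (0 without DMSO replicate 3), 4 to 5 with time in JEKO, 0 to 4 in UPN-1 (4 without DMSO 72 h replicate 3), 1 to 3 between MINO and JEKO, 5 to 6 between MINO and UPN-1 and 4 to 4 between UPN-1 and JEKO. Counts over all genes moved too: in MINO at 24 h from 359 to 1053 with no filter, 936 with DESeq2, 994 and 2373 with the blocks, 2557 with 6 libraries and 27 to 91 with 1 library left out. In MINO at 72 h they went from 835 to 1536 and 3029 with the blocks, 101 with 6 libraries, 2192 without the libraries numbered 2 and 358 to 1518 with 1 left out. With time in DMSO they went from 14 in MINO to 1727 with no filter, 1819 with the block, 633 with 36 libraries and 2028 without the libraries numbered 2, and from 224 in UPN-1 to 1845, 1026 (DESeq2), 2784 (block) and 1 to 3084 with 1 left out. In JEKO at 72 h they went from 50 to 355 with no filter and 557 with the block within each time, in UPN-1 at 72 h from 51 to 1139, and in the difference among lines from 19 to 266 (no filter), 247 and 1032 (blocks) at 24 h and from 182 to 528 and 1758 (blocks) at 72 h. The causes of these moves were not tested. With 47 of 98 simulated 2-fold changes and 85 of 99 simulated 4-fold changes recovered, changes of 2-fold, and some larger ones, can be missed at this size. Changes below 2-fold were not simulated, and the simulated libraries were drawn without shared deviations of same-numbered libraries.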
